A study of Arabidopsis thaliana with 6 samples.

Results

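The regions described here are retained last introns of Arabidopsis thaliana. Each is an intron that some transcripts of a gene splice out as their 3'-most intron and that falls entirely within a single exon of at least 1 other transcript of the same gene and strand. They were taken from the transcript annotation deposited by the authors, in which the source column names Araport11 for 59448 transcripts and the assembler scallop for 16761. An intron was kept when it was the last intron of every transcript that splices it and each of those transcripts has 2 or more introns, a rule that uses no expression value. Of 21441 retained introns in the annotation, 4717 met the rule, in 3871 genes, and 654 of these genes hold 2 or more, so some members share transcripts. The other retained introns were first introns (4551), internal introns (7822), introns whose position differs between transcripts (3574) and introns of transcripts with a single intron (777).

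RNA came from shoots of 3-week-old seedlings grown in vitro in long days without stress. The 3 mutant libraries are sme1-1, written smeb-1 in the sample labels, in the Col-0 background, and the 3 control libraries are wild-type Col-0; the groups are called sme1 and wild type below. SME1 encodes SmE, one of the Sm proteins, and the mutant is represented by 1 allele, while another gene, SmE-a, codes for the same subunit. The series title links SME1 deficiency to tolerance of oxidative stress, and the comparison asks how splicing in the shoot differs between the genotypes. Separate growth of the plants behind each library is not stated in the labels, so p-values measure the spread between these libraries only, and that spread may be technical.

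The Sm proteins form a ring around the small nuclear RNAs of the spliceosome, the machine that removes introns. When an intron is kept inside the coding sequence, the reading frame usually meets a stop codon in it. Splicing also leaves a protein mark, the exon junction complex, upstream of each junction, and a junction well downstream of the stop codon can send an mRNA to nonsense-mediated decay. The last intron makes the last such junction, so keeping it removes the mark nearest the 3' end, and an intron that lies in the 3' untranslated region is spliced or kept without any change to the protein.

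To show what was kept or removed, 8 last introns between coding exons with large changes are printed from the TAIR10.1 genome sequence, 5' to 3' on the gene's strand. Capitals mark the first 2 and last 2 bases of the intron and the first stop codon met when the upstream exon is read on into the intron. The first 5 had a higher retained share in sme1 and the last 3 a lower one. They lie at chr5:26220762-26220849 (+ strand), chr4:1121017-1121103 (- strand), chr3:7948264-7948344 (+ strand), chr1:4759456-4759559 (+ strand), chr1:27259045-27259220 (- strand), chr1:29332622-29332733 (+ strand), chr2:5977834-5977921 (- strand) and chr5:2685542-2685667 (+ strand).
AT5G65610: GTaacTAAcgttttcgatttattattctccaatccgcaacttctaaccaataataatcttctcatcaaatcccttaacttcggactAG
AT4G02550: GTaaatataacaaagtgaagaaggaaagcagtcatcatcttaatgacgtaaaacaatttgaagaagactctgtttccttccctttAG
WNK2: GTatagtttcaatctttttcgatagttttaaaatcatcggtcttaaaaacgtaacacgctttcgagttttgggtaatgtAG
AT1G13920: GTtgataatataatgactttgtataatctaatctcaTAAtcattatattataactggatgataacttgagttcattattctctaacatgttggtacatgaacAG
AT1G72416: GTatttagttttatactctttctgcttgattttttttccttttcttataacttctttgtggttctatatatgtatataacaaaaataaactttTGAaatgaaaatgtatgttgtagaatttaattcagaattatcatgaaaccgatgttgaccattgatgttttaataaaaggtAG
SULTR1;2: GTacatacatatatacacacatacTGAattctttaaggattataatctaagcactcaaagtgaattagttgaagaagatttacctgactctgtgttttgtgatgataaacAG
ALDH6B2: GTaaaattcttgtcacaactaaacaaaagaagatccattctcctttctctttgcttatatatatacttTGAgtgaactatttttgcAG
AT5G08340: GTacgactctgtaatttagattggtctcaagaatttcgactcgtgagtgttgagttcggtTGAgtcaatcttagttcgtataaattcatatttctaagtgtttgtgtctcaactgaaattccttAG
The introns of AT4G02550, of 87 bases, and of WNK2, of 81 bases, hold no stop codon in frame and are a multiple of 3 long, so no stop codon interrupts the retaining transcript within them. The other 6 reach a stop codon, in SULTR1;2 at base 25 of 112 and in AT5G65610 at base 6 of 88. GT at the start and AG at the end are the letters of ordinary introns.

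Among all 4717 retained last introns the median length was 102 bases, from 15 to 4491. GT or GC stood at the start and AG at the end in 4680, GC at the start in 173 of all, and 133 were under 60 bases. By the annotated coding models, 3269 lay between coding exons, 781 in a 3' untranslated region, 30 in a 5' untranslated region and 637 in transcripts without a coding model. Of the 3269 coding ones, 2735 held a stop codon in frame, 267 had none and were a multiple of 3 long, and 267 had none and were of another length. The retaining transcripts came only from Araport11 in 2344, only from scallop in 1750 and from both in 623.

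Per library, the TPM (a level per transcript length, scaled to one total per library) of all transcripts that retain an intron were summed as R and those of all transcripts that splice exactly that intron as S. The retained share is R/(R + S). These sums depend on how reads were apportioned between transcripts, not on reads counted over splice junctions, and transcripts of the gene that do neither are left out. In bulk RNA, fewer cells of a type and less RNA per cell cannot be told apart. A retention test, limma on log2((R + 0.1)/(S + 0.1)), was fitted over all 16046 retained introns whose R + S averaged 2 TPM or more and whose share averaged between 0.02 and 0.98, and p-values were adjusted over all of them by the Benjamini-Hochberg method. Of the 4717 last introns, 3351 in 2882 genes were tested. The other 1366 were not, among them 619 with a mean R + S under 2 TPM and 19 listed at 0 in every library.

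In wild type SME1 itself had 76.9, 73.9 and 75.3 TPM, and in sme1 it had 36.1, 31.6 and 29.7 TPM, so no library went against its label, and neither SME1 nor SmE-a holds a retained last intron. Every library sums to 1000000 TPM, so depth is unknown. The summed level of 8 root markers was 5.72 to 6.75 TPM in wild type and 33.7 to 61.6 TPM in sme1, and all 7 that could be tested rose. The 7 floral markers summed to 4.09 to 6.04 TPM in wild type and 7.40 to 10.4 TPM in sme1, with 1 of 3 tested higher. The 5 leaf markers summed to 31503 to 33848 TPM in wild type and 27618 to 31057 TPM in sme1, with 1 higher and 3 lower. Of all 20100 genes tested, 47.3% were higher and 20.0% lower. No marker was listed at 0 in all libraries, and the part of tissue makeup in the results below was not tested.

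The retained share of most last introns did not pass the test, and those that did rose more often than they fell. Retention was higher in sme1 for 96 of the 3351 tested last introns (2.86%) and lower for 47 (1.40%), by limma at an adjusted p of 0.05. The background over all 16046 tested retained introns was 731 higher, or 4.56%, and 166 lower, or 1.03%. The 143 called last introns lie in 141 genes. For 136 introns (94 higher and 42 lower) the 3 shares of one genotype lay apart from those of the other in the direction of the call, and for 6 the shares overlapped. The remaining intron, in the alternative oxidase gene AOX1D and named after its values were seen, was called lower by the log ratio (log2 change -1.87, limma adjusted p = 0.0346) although each sme1 share was above each wild-type one, with means of 0.130% and 10.5%. Its wild-type sums were 0.000133 TPM for R and 0.113 TPM for S, so that call rests on the added constant, and with 0.01 TPM its sign turned. At an unadjusted p under 0.05 there were 545 higher and 234 lower of the 3351 last introns, against 3179 higher and 951 lower of all 16046. Among the introns called higher the median change of the share was 11.9 percentage points and the largest 93.1, and among those called lower, AOX1D included, the median was -14.5 points and the largest fall -51.5. Of those called higher, 55 rose by at least 10 points, and of those called lower, 30 fell by at least 10.

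Most calls were lost when any 1 library was left out. Without sme1 replicate 1 limma called 0 in either direction (488 higher and 183 lower at an unadjusted p under 0.05), without sme1 replicate 2 there were 3 higher and 1 lower, and without sme1 replicate 3 there were 0 higher (441 unadjusted) and 2 lower. Without wild-type replicate 1 there were 6 and 4, without replicate 2 there were 12 and 7, and without replicate 3 there were 31 and 9. No called last intron changed its direction when any of these libraries was left out. For 136 of the 143 this was largely fixed beforehand, since the shares of the genotypes lay apart in the direction of the call. It therefore adds no support to the calls. The number of calls also moved with the constant added to R and S, with 373 higher and 229 lower at 1 TPM and 58 and 22 at 0.01 TPM in place of 0.1. Measured against the whole gene instead of S, 2 of the introns called higher had a change below 0, in CPR1 and in AT5G06278, the latter named after its values were seen.

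Across all tested last introns the median log2 change of R/S was 0.21, and 62.1% of the changes were above 0, where over all retained introns the median was 0.26 with 64.7% above 0. First introns had 174 of 3269 higher (5.32%) and 22 lower (0.673%), with a median of 0.34. Internal introns had 246 of 6284 higher (3.91%) and 67 lower (1.07%), with a median of 0.20. Introns of differing position had 193 of 2736 higher (7.05%) and 25 lower (0.914%), and single introns 22 of 406 higher (5.42%) and 5 lower (1.23%). Internal introns had the lowest median of these positions and 61.5% of changes above 0, and 9.20% of them were lower without overlap between libraries, against 8.92% of last introns. The difference between positions was tested only within genes, as given further on.

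**Figure D1:**
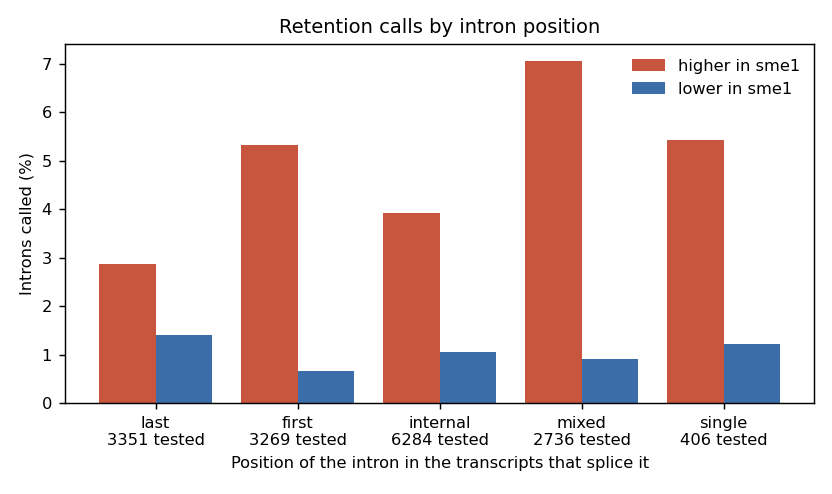
Percentage of tested retained introns whose retention was called higher (red) or lower (blue) in sme1 than in wild type, by the position of the intron in the transcripts that splice it, with the number tested under each pair of bars. Last introns show 2.86% higher and 1.40% lower, against 5.32% and 0.673% for first introns.

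The typical retained share of a last intron was low and similar in both genotypes. The median share over the 3351 introns was 14.6%, 15.8% and 16.5% in the wild-type libraries and 16.3%, 18.5% and 17.4% in the sme1 libraries, and the groups overlapped, since wild-type replicate 3 lay above sme1 replicate 1. For first introns the medians were 27.0%, 29.8% and 30.3% in wild type and 31.8%, 36.5% and 34.6% in sme1, without overlap. For internal introns they were 14.6% to 15.8% in wild type and 16.0% to 17.7% in sme1. Counted intron by intron, the libraries did not overlap and sme1 was higher for 670 last introns (20.0%) and lower for 299 (8.92%), against 24.1% and 8.24% of all retained introns. The mean share was over 50% for 871 last introns in wild type and 908 in sme1.

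A higher share can come from more of the retaining form, less of the spliced form, or both. The sums are described on the TPM scale here and for the single genes below. R rose for 792 of the 3351 last introns (23.6%) and fell for 387 (11.5%), against 25.1% and 10.4% of all retained introns. S rose for 987 (29.5%) and fell for 846 (25.2%), against 27.3% and 24.4%. These splits turned with the scaling. After median-of-ratios scaling over genes R rose for 514 and fell for 602 and S rose for 681 and fell for 1226, while the retention calls stood at 103 higher and 49 lower. This scaling lowers sme1 against wild type for every transcript, and the shares over all retained introns under it are not given. Transcripts that retain a last intron, 6675 in all, held 10.7%, 10.8% and 10.8% of all TPM in wild type and 9.88%, 10.4% and 10.2% in sme1, lower in each sme1 library.

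Of the 96 last introns with higher retention, R rose for 60 and S fell for 57. In 22 of them both happened, in 22 only R rose, in 26 only S fell, in 16 both sums rose, in 9 both fell and in 1 neither passed the threshold. Of the 47 with lower retention, S rose for 33 and R fell for 23, with both in 10, both sums higher in 10 and both lower in 6. Over all retained introns R rose for 485 and S fell for 402 of the 731 with higher retention. These splits also moved with the scaling. After median-of-ratios scaling R rose for 50 and S fell for 67 of the 96, and S rose for 29 and R fell for 26 of the 47. Since R and S make up the tested ratio, these counts describe the calls and do not support them.

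**Figure D2:**
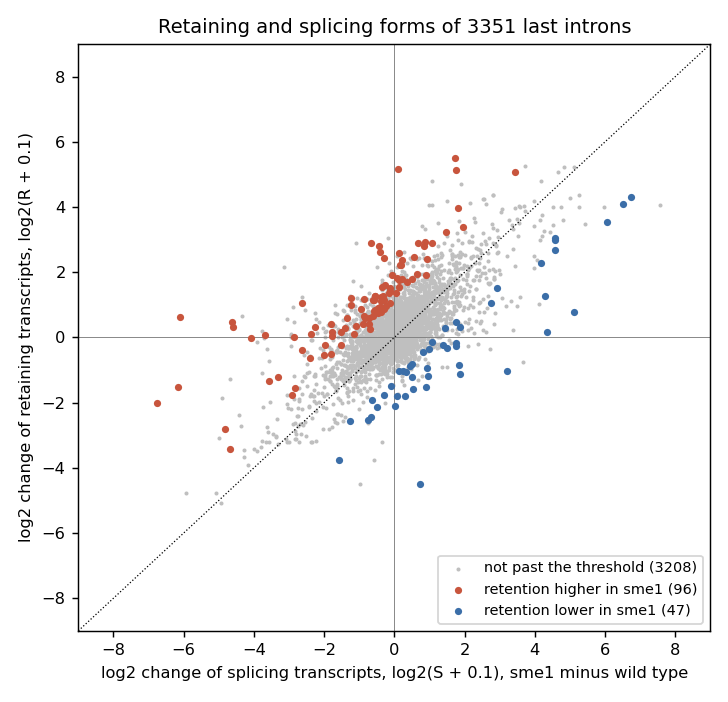
Change of the splicing transcripts (horizontal, log2(S + 0.1), sme1 minus wild type) against change of the retaining transcripts (vertical, log2(R + 0.1)) for each of the 3351 tested last introns, with the 96 called higher in red and the 47 called lower in blue. Points above the dotted line of equal change have a higher log2((R + 0.1)/(S + 0.1)) in sme1. At low sums the share can differ in direction, as in AOX1D, below the line with a higher mean share. Red points spread to the left, where the spliced form fell, as well as upwards.

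The genes that hold a retained last intron were also tested as a whole. Of 3579 such genes, 1555 were higher in sme1 (43.4%) and 1013 lower (28.3%), against 47.3% and 20.0% of all 20100 genes tested by limma. Their median log2 change was 0.12, against 0.22 over all genes, on the log2(TPM + 1) scale. After median-of-ratios scaling the split was 1035 higher and 1609 lower with a median of -0.14. The size factors were 1.07 to 1.13 in sme1 and 0.905 to 0.920 in wild type, so this scaling lowers sme1 for every gene. The shares over all genes at this scaling are not given, so the rescaled split says nothing particular about these genes. The 95 genes with a called rise in retention had 26 higher and 46 lower at the gene level, with a median of -0.18, and the 47 genes with a called fall had 26 higher and 10 lower, with a median of 0.41. The gene level contains R and S, so this too is a description.

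Of the 12 largest rises named here, 4 were in introns of the 3' untranslated region, where retention leaves the coding sequence as it was. PAB8, a protein that binds the poly(A) tail of mRNAs, has a last intron of 63 bases at chr1:18419872-18419934, 118 bases after the stop codon. Its retained share was 70.8%, 47.7% and 61.7% in wild type and 99.1%, 100% and 98.8% in sme1, so every sme1 library was above every wild-type one. S went from 25.5 ± 6.82 to 0.403 ± 0.362 TPM and R from 38.8 ± 9.20 to 58.2 ± 1.17 TPM (SD, n = 3 each), and the retention test put the log2 change at 6.71 (standard error 0.87, limma adjusted p = 0.0206). The spliced form was thus nearly gone, and the size of the log2 change rests on the added constant. The PAB8 gene went from 64.4 to 58.6 TPM, which did not pass the test (limma adjusted p = 0.0940).

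CPR1 encodes an F-box protein that targets immune receptors for degradation. Its last intron, chr4:7443377-7443523, lies 219 bases after the stop codon. The retained share was 50.7%, 52.0% and 55.5% in wild type and 85.8%, 81.5% and 84.6% in sme1 (log2 change 2.20, standard error 0.27, limma adjusted p = 0.0205). R went from 10.7 ± 0.464 to 14.2 ± 1.07 TPM and S from 9.62 ± 1.22 to 2.72 ± 0.574 TPM. R and S leave out other transcripts of the gene, which rose from 55.1 to 72.9 TPM. Set against the whole gene instead of S, the retaining transcript did not rise, with a log2 change of -0.00042.

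AT5G08630, a DDT domain protein, has a last intron of 72 bases at chr5:2798238-2798309, 265 bases after the stop codon. Its share was 46.5%, 80.2% and 78.1% in wild type, where replicate 1 stood low, and 99.9%, 98.9% and 99.7% in sme1 (log2 change 5.11, standard error 0.70, limma adjusted p = 0.0225). S went from 4.09 ± 2.67 to 0.0561 ± 0.0599 TPM. AT5G41750, of the TIR-NBS-LRR class of disease resistance proteins, a family of similar genes that can share reads, keeps an intron of 621 bases at chr5:16697579-16698199. Its share was 55.5%, 46.2% and 56.5% in wild type and 83.3%, 83.4% and 79.0% in sme1 (log2 change 1.94, standard error 0.29, limma adjusted p = 0.0259). Neither gene's level passed the test, at 12.6 and 11.7 TPM for AT5G08630 and 7.64 and 7.46 TPM for AT5G41750.

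**Figure D3:**
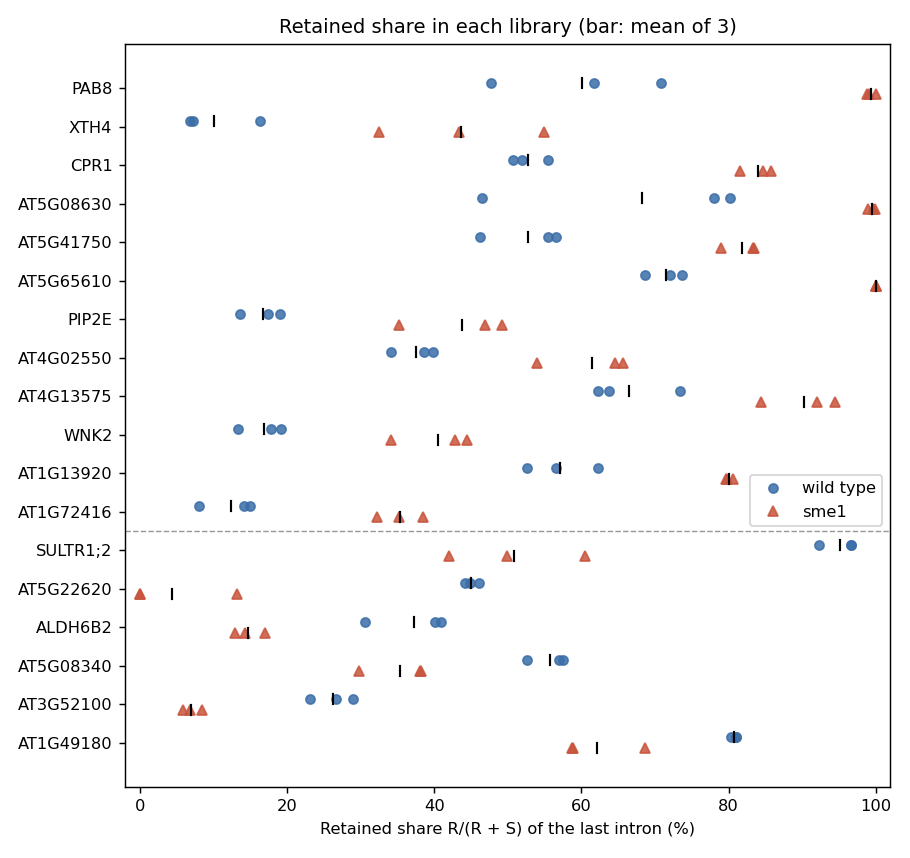
Retained share R/(R + S) in per cent (horizontal) for the 12 largest called rises (above the dashed line) and the 6 largest called falls (below it), 1 intron per gene, with R + S averaging 5 TPM or more in each genotype. Circles are the 3 wild-type libraries, triangles the 3 sme1 libraries and short bars the means; the genotypes do not overlap in any row because the introns were chosen so.

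The other large rises lay between coding exons or in transcripts without a coding model. XTH4, an enzyme that remodels xyloglucan in the cell wall, had a share of 7.28%, 6.78% and 16.3% in wild type and 32.5%, 54.9% and 43.4% in sme1 for its last intron of 428 bases at chr2:2764663-2765090 (log2 change 2.89, standard error 0.49, limma adjusted p = 0.0309). The retaining sum hardly moved, from 63.4 ± 32.4 to 71.6 ± 42.9 TPM, and the spliced sum went from 566.9 ± 68.9 to 83.8 ± 41.1 TPM. The gene as a whole fell from 630.3 to 155.4 TPM; the fall of S passed the test, while the change of R did not. Another retained intron of XTH4 also had a higher retained share, with a log2 change of 3.47.

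WNK2 is a kinase of the with-no-lysine family, and its last intron, printed above, is 1 of those with no stop codon in frame. Its share was 19.3%, 13.4% and 17.8% in wild type and 34.2%, 42.9% and 44.4% in sme1 (log2 change 1.75, standard error 0.28, limma adjusted p = 0.0283). The retaining transcripts rose from 6.32 ± 1.18 to 14.2 ± 3.22 TPM while the spliced ones fell from 31.3 ± 3.14 to 20.6 ± 0.998 TPM, with the gene at 37.6 and 34.8 TPM. AT4G02550, a Myb/SANT-like domain protein, behaved alike with the other open intron. Its share was 39.8%, 34.2% and 38.7% in wild type and 54.0%, 65.7% and 64.5% in sme1 (log2 change 1.39, standard error 0.28, limma adjusted p = 0.0407). R rose from 4.42 ± 0.562 to 8.03 ± 1.07 TPM and S fell from 7.32 ± 0.0665 to 5.04 ± 0.890 TPM. In both genes the forms moved in opposite directions while the gene's level did not pass the test.

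AT1G13920, of the membrane-associated remorin family, showed the other way to a higher share. The share was 52.6%, 56.5% and 62.2% in wild type and 80.6%, 79.6% and 79.9% in sme1 (log2 change 1.57, standard error 0.27, limma adjusted p = 0.0318). The retaining transcripts rose from 3.37 ± 0.360 to 11.8 ± 0.929 TPM, and the spliced ones stood at 2.53 ± 0.274 and 2.95 ± 0.146 TPM, a difference that did not pass the test. The gene rose from 5.90 to 14.8 TPM, nearly all of it in the retaining form. AT1G72416, a DnaJ-domain chaperone, lay at the opposite end, with both sums lower in sme1. Its share was 14.2%, 8.02% and 15.0% in wild type and 38.5%, 32.2% and 35.2% in sme1 (log2 change 2.01, standard error 0.33, limma adjusted p = 0.0283). R fell from 34.0 ± 14.4 to 5.57 ± 4.07 TPM and S fell further, from 233.8 ± 41.9 to 10.6 ± 7.72 TPM. In neither gene was the change one of the last intron alone. The log2 change was 2.79 for 1 tested retained intron of AT1G13920 at another position. It averaged 1.66 for 6 such introns of AT1G72416.

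AT5G65610, an uncharacterized protein, lost its spliced form. The share of the 88-base intron was 72.0%, 68.7% and 73.7% in wild type and 100% in each sme1 library, where S was listed at 3.31e-08, 0 and 0 TPM against 7.17 ± 1.30 TPM in wild type (limma adjusted p = 0.0105). The retaining form fell as well, from 17.8 ± 1.26 to 6.18 ± 1.29 TPM, and the gene's remaining RNA was all of that form. The same transcript keeps the gene's 2 other retained introns, whose mean log2 change was 4.64 as for the last one, so the change is not one of the last intron alone. The retaining transcript of this gene is known only from the assembly.

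PIP2E, the aquaporin also known as PIP2;6, and AT4G13575, an uncharacterized protein, have last introns in transcripts without a coding model. For PIP2E, at chr2:16293540-16293651, the share was 17.5%, 19.0% and 13.7% in wild type and 35.2%, 46.9% and 49.2% in sme1 (log2 change 1.95, standard error 0.30, limma adjusted p = 0.0274). For AT4G13575, whose intron of 4442 bases lies at chr4:7888143-7892584, it was 62.3%, 63.8% and 73.4% in wild type and 92.0%, 84.5% and 94.4% in sme1 (log2 change 2.23, standard error 0.47, limma adjusted p = 0.0450). R and S hold a small part of both genes, whose levels were 215.7 and 140.5 TPM for PIP2E and 251.7 and 99.7 TPM for AT4G13575. As a share of the whole gene the retaining forms did not pass the test, with log2 changes of 0.81 and 0.0072.

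SULTR1;2 encodes a high-affinity sulfate transporter known for sulfate uptake in roots, and it had the largest fall under the rule for named introns. The share of its 112-base last intron was 96.6%, 96.6% and 92.3% in wild type and 42.0%, 60.6% and 49.9% in sme1 (log2 change -4.17, standard error 0.46, limma adjusted p = 0.0187). The retaining form stood at 15.5 ± 2.09 and 17.4 ± 1.21 TPM, a difference that did not pass the test. The spliced form went from 0.809 ± 0.480 to 17.5 ± 6.13 TPM, and with it the gene rose from 16.3 to 34.9 TPM. Of these forms, wild-type shoots held almost only the one that keeps the intron with its stop codon, while sme1 held about equal levels of both. The root markers given above were higher in the same libraries, and their part in this change was not tested. Over 4 tested retained introns of SULTR1;2 at other positions the mean log2 change was -1.51.

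Other falls came from loss of the retaining form. ALDH6B2, the methylmalonate-semialdehyde dehydrogenase of valine breakdown, had a share of 40.9%, 40.1% and 30.6% in wild type and 14.3%, 17.0% and 12.9% in sme1 (log2 change -1.76, standard error 0.27, limma adjusted p = 0.0269). R fell from 28.1 ± 9.97 to 4.93 ± 0.532 TPM and S from 46.0 ± 7.68 to 28.7 ± 1.93 TPM. For 3 tested retained introns of ALDH6B2 at other positions the mean log2 change was -1.19. AT3G52100, a RING/FYVE/PHD-type zinc finger protein with an 82-base intron at chr3:19322544-19322625, is the plainest case. Its share was 26.7%, 29.0% and 23.2% in wild type and 6.84%, 8.40% and 5.82% in sme1 (log2 change -2.09, standard error 0.24, limma adjusted p = 0.0201). The spliced form was 9.11 ± 0.206 and 9.13 ± 0.452 TPM, and the retaining form fell from 3.26 ± 0.474 to 0.691 ± 0.143 TPM.

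AT5G08340, a nucleotidylyl transferase family protein, followed the same pattern, with R at 4.84 ± 0.349 and 2.31 ± 0.279 TPM. Its share was 57.6%, 56.9% and 52.6% in wild type and 38.2%, 29.8% and 38.0% in sme1 (log2 change -1.17, standard error 0.25, limma adjusted p = 0.0472). AT1G49180, a protein kinase, went from shares of 80.3%, 81.1% and 81.0% to 58.8%, 68.7% and 58.8% (log2 change -1.33, standard error 0.29, limma adjusted p = 0.0494), with S higher at 3.52 ± 0.109 and 7.09 ± 0.816 TPM. Another last intron of AT1G49180, at chr1:18184606-18184728 and named after its values were seen, was called the other way, with mean shares of 20.8% and 38.5% (log2 change 1.22, standard error 0.25, limma adjusted p = 0.0430). Its R, at 3.52 and 7.01 TPM, nearly equals the S of the first, so the pair rests largely on the same transcripts. AT5G22620, a phosphoglycerate mutase family protein, had shares of 44.2%, 44.8% and 46.1% in wild type for an intron that begins 32 bases after the stop codon, at chr5:7517503-7517698. In sme1 R was listed at 1.68e-06 and 6.93e-05 TPM in replicates 1 and 2, and replicate 3 had a share of 13.2% (limma adjusted p = 0.0455). The calls of AT5G08340, AT1G49180 and AT5G22620 lie near the threshold.

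**Figure D4:**
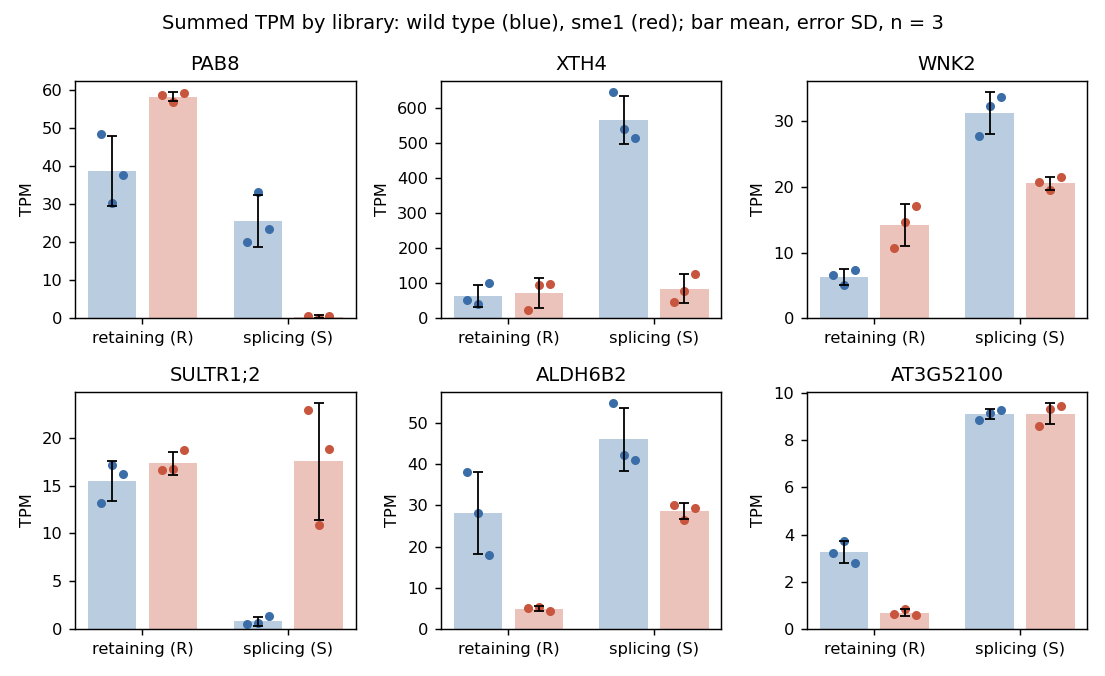
Summed TPM of retaining (R) and splicing (S) transcripts for 6 called last introns, with bars for the mean, error bars for the SD and points for the 3 libraries of wild type (blue) and of sme1 (red). The spliced form is nearly absent from sme1 in PAB8 (0.403 TPM) and from wild type in SULTR1;2 (0.809 TPM), while in AT3G52100 only the retaining form differs.

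The calls of several named introns also depended on settings other than the number of libraries. With a constant of 0.01 TPM in place of 0.1, the adjusted p exceeded the threshold for PAB8, AT4G02550, AT4G13575, AT5G08340, AT5G22620 and AT1G49180. With no minimum of R + S it did so for the same introns other than PAB8. With the transcripts of Araport11 alone it did so for AT1G13920, AT1G72416, ALDH6B2, AT4G02550, AT5G08340 and AT5G22620. Their directions stayed as given.

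The 4 last introns with the most abundant retaining transcripts belong to genes that leaves express strongly, and none passed the retention test with the constant of 0.1 TPM. In AT2G26500, the petM subunit of the cytochrome b6f complex, the 96-base intron at chr2:11270596-11270691 has no stop codon in frame. Its share was 77.1%, 66.0% and 66.4% in wild type and 83.3%, 88.2% and 93.8% in sme1, without overlap (log2 change 1.81, standard error 0.49, limma adjusted p = 0.0783), and with a constant of 1 TPM it passed (log2 change 1.80, limma adjusted p = 0.0160). The spliced form fell from 517.9 ± 154.4 to 101.9 ± 41.9 TPM and the retaining form from 1176 ± 68.2 to 808.6 ± 229.2 TPM. PSAH-1, a subunit of photosystem I that has a close copy in the genome, was at 98.0%, 87.6% and 95.3% in wild type and 96.1%, 96.2% and 95.0% in sme1. The groups overlapped (log2 change 0.25, standard error 0.77, limma adjusted p = 0.872), and the sign turned without wild-type replicate 2.

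CA1, a carbonic anhydrase of the chloroplast, had shares of 60.5%, 52.0% and 54.2% in wild type and 61.3%, 63.8% and 65.1% in sme1 (log2 change 0.47, standard error 0.26, limma adjusted p = 0.294). UBQ10, a polyubiquitin gene, was at 74.0%, 68.9% and 69.5% in wild type and 76.2%, 76.4% and 78.4% in sme1 (log2 change 0.46, standard error 0.27, limma adjusted p = 0.330). In each the genotypes did not overlap, yet the difference did not pass the test. The 228-base intron of UBQ10 at chr4:2719469-2719696 has no stop codon in frame and is a multiple of 3 long, and because the gene is made of ubiquitin repeats its reads may be shared between repeats and gene copies. These genes show that a transcript counted as retaining can be the main mRNA of a strongly expressed gene.

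The kind of intron was then set against the calls. Between coding exons, 74 of 2346 tested last introns were called higher (3.15%) and 40 lower (1.71%). In the 3' untranslated region there were 13 of 586 higher (2.22%) and 4 lower (0.683%). Split by distance, introns that begin at least 50 bases after the stop codon, where a spliced junction can trigger decay, had 6 of 306 higher and none lower, with a median log2 change of 0.25. At an unadjusted p under 0.05 they had 44 higher and 11 lower. All retained introns at that distance had 9 of 444 higher and 1 lower, with a median of 0.22. Unadjusted, they had 65 higher and 23 lower. Of these 444 introns, 306 are the last introns just described, so a likeness between the sets is largely fixed beforehand. Last introns under 50 bases after the stop codon had 7 of 280 higher and 4 lower, with a median of 0.09. All retained introns this near had 13 of 384 higher and 4 lower, with a median of 0.13, and 280 of these 384 are again the last introns themselves. Introns in transcripts with no coding model had 9 of 401 higher and 3 lower, and limma called 0 of the 18 in a 5' untranslated region (3 higher and 0 lower unadjusted). The background for all retained introns is the 4.56% and 1.03% given above, and no kind was tested against another.

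Among the coding last introns, those with a stop codon in frame had 63 of 2013 higher (3.13%) and 36 lower (1.79%). Those with no stop codon and a length that is a multiple of 3, which splicing would remove as an in-frame piece of coding exon, had 6 of 163 higher and 2 lower, with a median log2 change of 0.35 against 0.19 for those with a stop codon. R rose for 33.7% of these open introns and for 22.7% of those with a stop codon. Over all retained introns of these 2 kinds R rose for 30.7% and 23.0%, with median log2 changes of R/S of 0.26 and 0.22. The contrast in R is thus not particular to last introns, which are themselves part of all retained introns. For R/S the sets differed. Changes above 0 made up 69.3% of the open last introns and 61.0% of those with a stop codon. Over all retained introns of the 2 kinds they made up 63.0% and 63.1%. These differences were not tested. WNK2 and AT4G02550 are 2 of the 6 open last introns called higher. By length, 44 of 1549 introns of 60 to 100 bases were higher and 24 lower, 30 of 1003 of over 100 to 200 bases were higher and 19 lower, and 21 of 755 over 200 bases were higher and 4 lower. Over all retained introns of these 3 lengths, 350 of 6882, 174 of 4833 and 202 of 4215 were higher. Those lower were 72, 63 and 30.

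**Figure D5:**
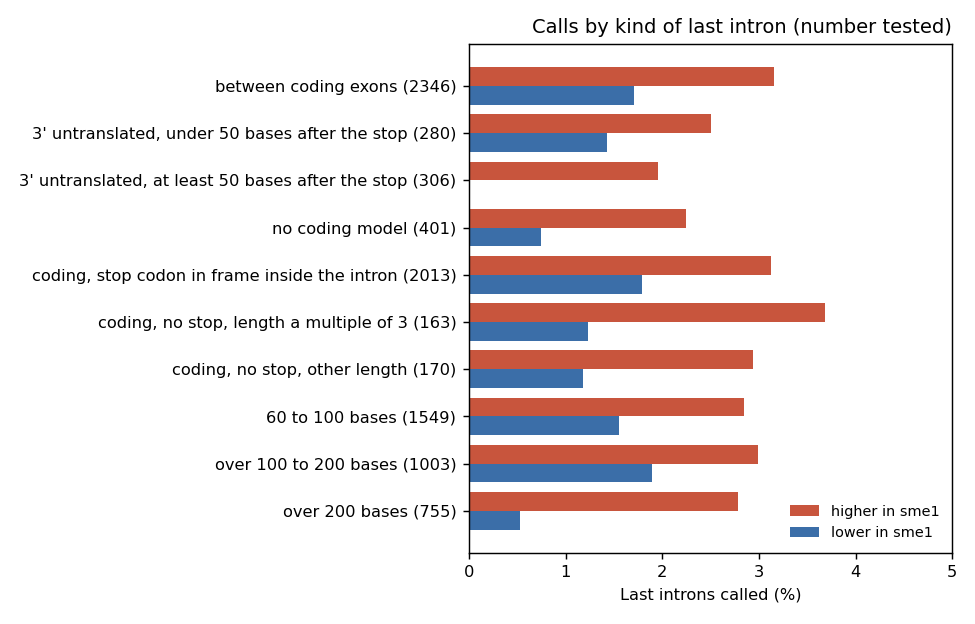
Percentage of tested last introns called higher (red) or lower (blue) in sme1, by place in the annotated model, by the presence of a stop codon in frame and by length, with the number tested in parentheses. Rises lie between 1.96% and 3.68% in every kind shown, and falls between 0% and 1.89%.

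The calls were also counted by splice site and by the source of the transcripts. In the 1201 tested last introns with the best-scoring 5' splice sites 42 were higher (3.50%) and 13 lower (1.08%), where the score compares each site with the base frequencies of all introns in the annotation. All retained introns in that range of the score had 4.99% higher and 1.01% lower. In the 987 with the poorest sites 24 were higher (2.43%) and 14 lower (1.42%), against 3.79% and 1.00% of all. There was 1 higher and 1 lower call among 91 tested last introns that begin with GC. Introns whose retaining transcripts come only from the assembly had 46 of 1384 higher (3.32%) and 18 lower (1.30%), against 5.19% and 1.05% of all retained introns of that source. Those only from Araport11 had 36 of 1543 higher (2.33%) and 22 lower (1.43%), against 3.69% and 0.996%. When the main retaining transcript kept no other intron, 56 of 1845 were higher and 29 lower; when it kept another intron too, 40 of 1506 were higher and 18 lower, with medians of 0.16 and 0.26. Over all retained introns the corresponding percentages of rises were 3.16% and 5.77%.

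Whether the last intron changes differently from the other introns of its gene was tested within 1574 genes that have a tested retained intron at another position. The test compared the log ratio of the last intron with the mean of the others in each library. It called 5 genes, or 0.318%, with the last intron relatively more retained in sme1 in 3 and less in 2, by limma with Benjamini-Hochberg adjustment, and 270 had an unadjusted p under 0.05. The median difference was -0.10. Leaving out sme1 replicate 1 or 2 left 0 calls. Leaving out sme1 replicate 3 or wild-type replicate 2 left 0 more retained and 1 less retained, wild-type replicate 1 gave 4 and 6, and wild-type replicate 3 gave 4 and 3. With a constant of 1 TPM there were 31 and 40.

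AGD6, an ARF GTPase-activating protein, has the steadiest of these. Its 76-base last intron at chr3:19903652-19903727 begins 2 bases after the stop codon. The share was 10.1%, 11.9% and 8.54% in wild type and 23.3%, 23.9% and 23.6% in sme1, while the intron upstream of it had mean shares of 10.7% and 7.02%. The difference between them was 2.07 on the log2 scale (standard error 0.16, limma adjusted p = 0.0120). CPI1, the cyclopropyl isomerase of sterol synthesis, had shares of 91.3%, 90.9% and 88.9% in wild type and 100% in each sme1 library, with S listed at 0 in sme1 and at 1.21 ± 0.193 TPM in wild type (limma adjusted p = 0.0259). Its other retained intron had mean shares of 27.0% and 26.2%.

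In the opposite direction, AT2G37900, a transporter of the major facilitator superfamily, had shares of 44.9%, 67.8% and 45.3% in wild type and 18.2%, 18.8% and 26.0% in sme1 for its last intron, and mean shares of 17.2% and 31.2% for its first intron. The difference was -2.92 (standard error 0.20, limma adjusted p = 0.0120), at sums of under 4 TPM. AT3G27350, annotated as a transcriptional regulator ATRX-like protein, was at 100% in each wild-type library, with S listed at 0, and at 89.5%, 88.2% and 93.1% in sme1 (limma adjusted p = 0.0120). The fifth gene, AT2G14230, an uncharacterized protein, had R listed at 0, 0 and 0.0867 TPM in wild type and at 6.14, 4.39 and 2.81 TPM in sme1, so its values rest on the added constant (limma adjusted p = 0.0477).

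The gene lists were written from memory with earlier results of these data known, and they are described by counts alone. For every list, the shares to set beside the counts are 2.86% higher and 1.40% lower over all 3351 tested last introns. Lists of genes tied to splicing held few retained last introns that could be tested, and none of those passed the test. With so few introns, 0 calls is near those shares and says nothing particular about these genes. Of 20 SR proteins, which bind exons and guide splice site choice, 6 hold 8 tested last introns, with 0 higher and 0 lower by limma (1 at an unadjusted p under 0.05) and a median log2 change of -0.29. RSZ22a, an SR protein with a near copy, RSZ22, came closest. Its share was 51.4%, 49.6% and 51.8% in wild type and 63.3%, 59.98% and 62.7% in sme1 (log2 change 0.65, standard error 0.22, limma adjusted p = 0.131). RSZ22 was at 56.3%, 44.5% and 54.5% in wild type and 43.9%, 50.8% and 43.4% in sme1 (limma adjusted p = 0.498), and SR45 at 14.5%, 12.7% and 15.4% and 8.28%, 17.2% and 8.84% (limma adjusted p = 0.492). In both of these the groups overlapped.

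Among 20 other splicing factors, 9 last introns in 5 genes were tested, with 0 higher and 0 lower by limma (2 unadjusted) and a median of -0.11. U2B'', a protein of the U2 small nuclear ribonucleoprotein, had shares of 15.3%, 16.1% and 19.0% in wild type and 7.51%, 10.1% and 8.49% in sme1 (log2 change -1.07, standard error 0.24, limma adjusted p = 0.0507), just above the threshold, and 5 other settings brought it below 0.05. CCR1, the RNA-binding protein also called GRP8, has a 129-base last intron at chr4:18274186-18274314 that begins with GC. Its share was 61.8%, 65.7% and 66.1% in wild type and 54.6%, 46.2% and 41.1% in sme1 (log2 change -1.02, standard error 0.29, limma adjusted p = 0.0829), and with a constant of 1 TPM the limma adjusted p was 0.0267. The U5 helicase gene emb1507, also known as BRR2a, was at 100%, 96.2% and 100% and at 97.7%, 96.6% and 94.3% (limma adjusted p = 0.300). Of 24 Sm and LSm genes 1 holds a retained last intron, which was not tested, and none of 10 genes of nonsense-mediated decay and the exon junction complex holds one.

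Of 21 clock genes, 4 had a tested last intron; 2 were called higher and none lower, with 3 at an unadjusted p under 0.05 and all 4 changes above 0. PCL1, also called LUX, is a DNA-binding protein of the evening complex, and its 134-base intron at chr3:17185052-17185185 lies 62 bases after the stop codon. The share was 56.0%, 78.6% and 70.7% in wild type and 96.9%, 90.9% and 94.8% in sme1 (log2 change 2.46, standard error 0.49, limma adjusted p = 0.0407). R was 3.21 ± 0.122 and 3.43 ± 0.0719 TPM, and S went from 1.59 ± 0.920 to 0.212 ± 0.113 TPM, which leaves out other transcripts of the gene, whose level fell from 15.6 to 6.62 TPM (limma adjusted p = 0.00129). LCL1, also called RVE4, a Myb-like activator, had shares of 2.49%, 2.22% and 1.26% in wild type and 5.56%, 4.79% and 5.87% in sme1 for an intron 74 bases after the stop codon (log2 change 1.53, standard error 0.32, limma adjusted p = 0.0451). R stood at 3.92 ± 1.24 and 6.02 ± 0.668 TPM while S fell from 193.4 ± 3.33 to 105.2 ± 0.434 TPM. For 2 tested retained introns of LCL1 at other positions the mean log2 change was 1.92.

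RVE8, a relative of LCL1, was at 6.25%, 4.15% and 3.30% in wild type and 10.5%, 10.1% and 9.65% in sme1 (log2 change 1.13, standard error 0.28, limma adjusted p = 0.0655). Both its sums rose, R from 0.780 ± 0.215 to 4.66 ± 0.709 TPM and S from 16.6 ± 2.93 to 41.5 ± 5.12 TPM. The calls of PCL1 and LCL1 were lost with a constant of 0.01 TPM, with no minimum of R + S and with Araport11 transcripts alone. Time of day at harvest, which sets the level of clock genes, is not given for either genotype in the labels.

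Of 37 genes for antioxidant enzymes, 14 had 16 tested last introns, with 1 called higher, none lower, 10 of 16 changes above 0 and a median of 0.13. The call was in GPX1, a glutathione peroxidase of the chloroplast, at chr2:10669680-10669798. The share was 14.2%, 12.8% and 12.2% in wild type and 34.7%, 27.9% and 25.8% in sme1 (log2 change 1.47, standard error 0.24, limma adjusted p = 0.0301), and the limma adjusted p was 0.0577 when the retaining exon had to begin with the upstream exon. S went from 41.6 ± 6.46 to 10.4 ± 2.74 TPM and R from 6.22 ± 0.657 to 4.30 ± 0.960 TPM, both in assembled transcripts that make up little of the gene's 967.5 and 462.8 TPM. NTRC, a thioredoxin reductase of the chloroplast, was at 88.2%, 83.5% and 89.0% in wild type and 91.3%, 94.9% and 94.8% in sme1 (limma adjusted p = 0.157), without overlap. PRXQ, a peroxiredoxin, was at 4.26%, 0.920% and 5.32% and at 9.26%, 17.7% and 2.90% (limma adjusted p = 0.333), with overlap. For NTRC and PRXQ too, R and S are assembled transcripts that make up little of the gene. In wild type and sme1 NTRC had R of 6.48 and 10.4 TPM and S of 0.957 and 0.713 TPM. The NTRC gene stood at 110.9 and 121.5 TPM. PRXQ had R of 0.310 and 0.851 TPM and S of 8.63 and 8.32 TPM. The PRXQ gene stood at 338.2 and 374.3 TPM.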

How the data were processed

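RNA-seq libraries were compared between sme1 and wild type, 3 of each. The authors deposited TPM per gene and per transcript and the transcript annotation with its positions, read here as deposited. Per the submitters' processing notes STAR 2.5.2b and kallisto 0.43.0 were among the tools, with roles not given. The annotation names no genome build. On TAIR10.1, whose sequence and RefSeq names were used, 99.44% of 141522 nuclear introns have GT or GC first and AG last. Per the labels' protocols the kit was stranded.

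Retained introns, R and S were built from the annotation as the report describes, and tested with limma 3.58.1 (R 4.3.3, trend) and Benjamini-Hochberg adjustment over all 16046 introns. The fit had no covariate. Genes were tested on log2(TPM + 1) with a mean of at least 1 TPM. TPM keep no depth, so no interval or detection floor is given. Low sums depend on the added constant of 0.1 TPM.

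Introns and genes named are SME1; the 12 largest rises and 6 largest falls of the mean share among called last introns without overlap and with R + S of at least 5 TPM in each genotype; the 4 highest mean R; the extremes of the test within genes; and up to 3 members per gene list with the smallest adjusted p. The regions and lists were chosen with earlier results of these data known. Distances after a stop codon, frames and regions follow the most abundant annotated coding model that splices the intron.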

Additional observations from a re-analysis of the deposited data

How the results depend on the processing

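Retention calls for last introns were 96 higher and 47 lower. A constant of 1 TPM gave 373 and 229, and 0.01 TPM gave 58 and 22. Requiring 5 TPM of R + S gave 147 higher, a share of 0.1 to 0.9 gave 47 and 27, and transcripts of Araport11 alone gave 11 and 11 among 1725 tested. No minimum, no share limits, a stricter retaining exon, the share of the gene, no trend and, chosen after seeing the data, median-of-ratios scaling and canonical introns of at least 60 bases moved neither count by more than 1.5 times. Leaving out 1 library gave 0 to 31 higher and 0 to 9 lower. The median change was above 0 in every one of these settings.

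The replicate block gave 0 higher and 0 lower for retention (504 and 237 at an unadjusted p under 0.05, by limma) and 0 and 0 for the test within genes. Same-numbered libraries did not deviate together in these log ratios (correlations of 0.0129, -0.00562 and -0.000955). Whether libraries of the same number were grown or prepared together was not tested. The cause of the lost calls was not tested.

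Median-of-ratios scaling turned the medians of R (-0.028), S (-0.20) and host genes (-0.14), with 514 higher and 602 lower for R, 681 higher and 1226 lower for S, and 1035 higher and 1609 lower for host genes. It lowers sme1 against wild type in every gene, not only in these. A minimum of 5 TPM gave host genes a median of 0.083. The test within genes (3 and 2) gave 31 and 40 at 1 TPM and 11 less retained against the most abundant other intron, and 0 to 4 more and 0 to 6 less retained with 1 library left out.

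Of the named introns, CPR1 turned as a share of the gene (-0.00042), and PSAH-1 turned without wild-type replicate 2 (-0.47 to 0.92 over the libraries left out). Without sme1 replicate 1 all 26 called named introns lost their call. Depth limits could not be set, since TPM keep none. Shares rest on apportioned reads, and most calls were lost when any 1 library was left out.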
